A study of Mus musculus with 2 samples.

Results

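Perivascular cells, or pericytes (PCs), make and bind proteases that break up fibrin and matrix around the vessel, and the inhibitors that hold those proteases back. The 9 genes described here, of 20211 gene symbols, were chosen by name for their known roles, with earlier results of these data known. They are Plat and Plau, which encode the plasminogen activators tPA and uPA, Plaur, which encodes the receptor that holds uPA at the cell surface, the serpins Serpine2, Serpinb2 and Serpinf1, and the coagulation genes F3, Tfpi and Tfpi2. Each of the 9 stood on a single row of both tables, so that no averaging of repeated symbols was needed.

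Primary PCs from the aorta of C57BL/6 mice were profiled by RNA-seq, with 1 wild-type (WT) library and 1 Kai1 KO (Kai1-/-) library, to ask what PCs without KAI1 express. KAI1, also called CD82, is a tetraspanin of the cell surface encoded by Cd82. The labels give DMEM with 10% FBS as the medium for both cultures, and the methods a richer one. How the knockout allele was made and how many animals gave each library are not given in the sources used here, and no age or sex is tied to either library, while the methods name bought adult mice of both sexes in general.

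Plasminogen activators cut plasminogen into plasmin, the protease that dissolves fibrin and activates matrix proteases. Serpins trap their target protease by a change of shape that destroys both, although some members of the family inhibit no protease. Tissue factor, the product of F3, starts coagulation when blood meets the cells around a vessel, and tissue factor pathway inhibitor, the product of Tfpi, shuts this start down.

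Expression was given in RPKM, an estimate of reads per length of transcript and per mapped reads of the library. Levels of different genes can thus be set side by side. No read totals came with the values. Some values, such as 9.68e-06 RPKM for Serpinb6d in WT PCs, were too small for a whole read, so they are not plain counts. Most low values of genes with 1 annotated transcript sat on regular steps, each worth 1 read. These steps put the depth at about 29500000 reads for WT PCs and 26700000 for Kai1-/- PCs. The 95% intervals below come from reads estimated in this way, cover counting error only, and say nothing of the spread between animals or cultures. With 1 library per genotype there is no replicate check and no p-value. The targeted gene Cd82 reached 12.8 RPKM in WT PCs against 2.62 RPKM in Kai1-/- PCs, or 20.5% of WT (16.7% to 25.1%).

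Of the 9 genes, 7 averaged 1 RPKM or more across the libraries. Of these 7, Plat was more than 2-fold higher in Kai1-/- PCs, and F3, Serpinf1 and Serpine2 were more than 2-fold lower. Plau, Plaur and Tfpi were within 2-fold. Among all 10068 genes with such an average, 7.98% were beyond 2-fold on the higher side and 7.81% on the lower side, on the scale of log2(RPKM + 0.1). The log2 ratio (Kai1-/- over WT) had a median of -0.67 over the 7 genes and of 0.08 over all 10068. Serpinb2 and Tfpi2 were too low to be counted, and both were listed at 0 in the Kai1-/- library. Of all 20211 symbols, 1479 were at 0 in the Kai1-/- library only and 267 in the WT library only.

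**Figure D1:**
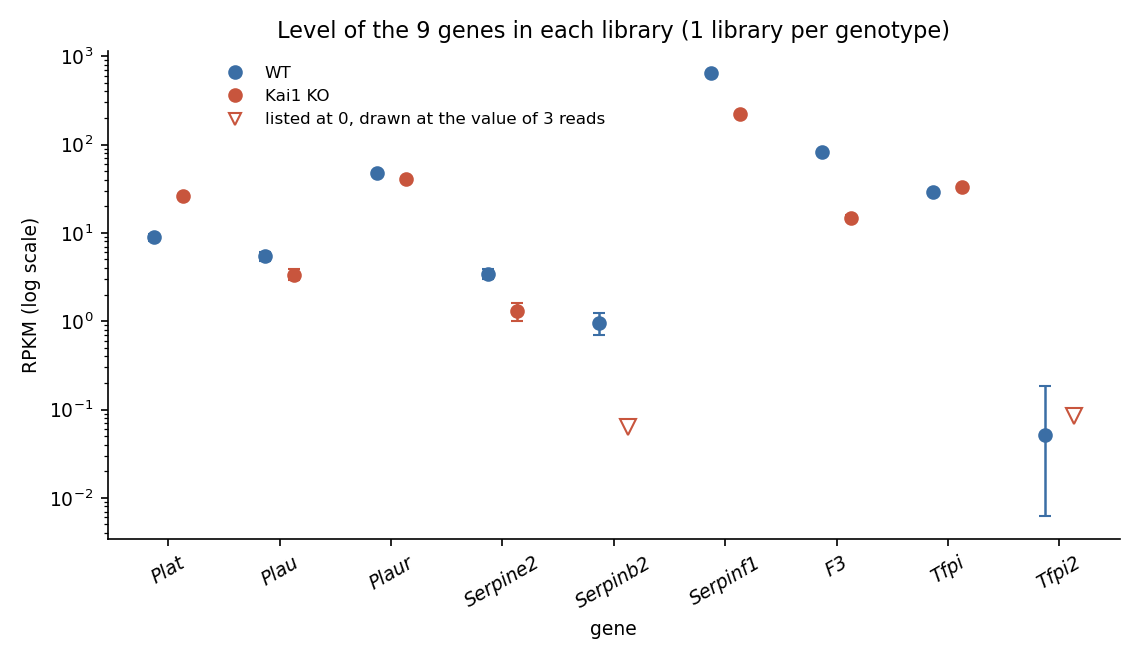
RPKM of the 9 genes in each library on a log axis, 1 point per library, with bars for the 95% counting interval. Plat is the gene whose Kai1-/- point stands well above its WT point (26.1 against 8.89), and F3, Serpinf1 and Serpine2 have theirs well below. Open triangles mark values listed at 0, drawn at the RPKM of 3 reads.

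Plat occupies 23868216 to 23893319 of chromosome 8, plus strand, in NCBI37, the mm9 build, and has 1 annotated transcript of 14 exons. It reached 8.89 RPKM in WT PCs against 26.1 RPKM in Kai1-/- PCs, from an estimated 611 and 1623 reads. The level in Kai1-/- PCs was thus 2.94-fold that in WT PCs, with a counting interval from 2.68 to 3.23, and the log2 ratio was 1.54. Of the 10068 genes, 2.44% had a higher ratio.

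Plau, the other activator gene, occupies 21655884 to 21662610 of chromosome 14, plus strand, with 1 annotated transcript of 11 exons. It reached 5.41 RPKM in WT PCs against 3.35 RPKM in Kai1-/- PCs, or 62.0% of WT (51.8% to 74.3%). The log2 ratio of -0.67 stayed within 2-fold, but with both libraries scaled to Gapdh it was -1.16. The activator genes thus lay on opposite sides of 0 under each scaling. Within the WT library Plat was 1.64 times as high as Plau (1.44 to 1.88), and within the Kai1-/- library 7.79 times (6.69 to 9.07). Such a ratio between genes of a library does not depend on how the libraries were scaled to each other. Plat made up 62.2% of the summed RPKM of both activator genes in WT PCs and 88.6% in Kai1-/- PCs, while the sum itself went from 14.3 to 29.5. These are RNA levels, and the amount and activity of the proteins were not measured.

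Plaur, at 25247519 to 25260892 of chromosome 7, plus strand, encodes the uPA receptor, a protein tied to the membrane by a lipid anchor. It reached 47.4 RPKM in WT PCs against 40.6 RPKM in Kai1-/- PCs, or 85.7% of WT (79.6% to 92.1%), a log2 ratio of -0.22. The receptor gene was 8.78 times as high as its ligand gene Plau in WT PCs and 12.1 times as high in Kai1-/- PCs.

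Serpinf1 had the highest level of the 9 genes in both libraries. It encodes pigment epithelium-derived factor (PEDF), a secreted serpin that inhibits no protease and is known as an inhibitor of angiogenesis. It occupies 75223271 to 75236203 of chromosome 11, minus strand, with 9 annotated transcripts. It reached 641 RPKM in WT PCs against 223 RPKM in Kai1-/- PCs, or 34.8% of WT (34.1% to 35.6%), which is -1.52 on the log2 scale. Only 1.93% of the 10068 genes had a higher RPKM than Serpinf1 in WT PCs, and 4.89% did in Kai1-/- PCs. Serpinf1 held 78.3% of the summed RPKM of the 9 genes in WT PCs and 65.2% in Kai1-/- PCs. Over all 60 symbols that start with Serpin, its share of the summed RPKM went from 26.0% to 12.5%.

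Serpine2 encodes protease nexin-1, a cell-bound inhibitor of thrombin and of both plasminogen activators. It occupies 79790772 to 79855271 of chromosome 1, minus strand. It reached 3.44 RPKM in WT PCs against 1.29 RPKM in Kai1-/- PCs, from an estimated 215 and 73 reads over its longest annotated transcript, a form that keeps an intron. The Kai1-/- level was 37.5% of WT (28.4% to 49.2%), a log2 ratio of -1.35. This gene is low, and with 1 RPKM added in place of 0.1 the log2 ratio was -0.95, which is less than a 2-fold change. Serpine2 was 0.387 times as high as Plat in WT PCs (0.330 to 0.454) and 0.0495 times in Kai1-/- PCs (0.0387 to 0.0627).

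Serpinb2 encodes plasminogen activator inhibitor-2, an inhibitor of uPA found mainly inside cells. It occupies 109408000 to 109432055 of chromosome 1. It reached 0.943 RPKM in WT PCs, or about 50 reads, and it was listed at 0 in Kai1-/- PCs. Against the 0.0626 RPKM that 3 reads in that library would give, it was at least 15.1-fold lower in Kai1-/- PCs. This limit rests on the length of its longest annotated transcript, and with the median length it was 9.76-fold. From the lower end of the WT counting interval these limits were 11.2-fold and 6.60-fold. Of the serpin genes beside it, Serpinb7, Serpinb11 and Serpinb3c were at 0 in both libraries, and Serpinb8 was at 3.58 and 2.19.

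F3 stood farthest from WT among the 7 genes. It occupies 121426455 to 121437970 of chromosome 3, plus strand, with 2 annotated transcripts. It reached 82.4 RPKM in WT PCs against 14.7 RPKM in Kai1-/- PCs, from an estimated 4073 and 655 reads. The Kai1-/- level was 17.8% of WT (16.4% to 19.3%), a log2 ratio of -2.48, and 1.45% of the 10068 genes had a lower ratio.

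Tfpi, at 84273012 to 84316932 of chromosome 2, minus strand, reached 29.1 RPKM in WT PCs against 33.0 RPKM in Kai1-/- PCs. The log2 ratio of 0.18 was small, and it was -0.31 with the libraries scaled to Gapdh, so that its direction depended on the scaling. Its 11 annotated transcripts share 1 value in the tables and could not be told apart. F3 was 2.83 times as high as Tfpi within the WT library (2.71 to 2.97) and 0.444 times as high within the Kai1-/- library (0.407 to 0.482). The order of the initiator and its inhibitor was thus opposite in the 2 libraries, whatever the scaling between them.

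Tfpi2 encodes a related Kunitz-type inhibitor of the matrix that acts on plasmin. It occupies 3912594 to 3918375 of chromosome 6. It reached 0.0517 RPKM in WT PCs, about 2 reads, and it was listed at 0 in Kai1-/- PCs. Both values are at or below the level of 3 reads, so no fold was computed.

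The order of the levels in the WT library was Serpinf1, F3, Plaur, Tfpi, Plat, Plau, Serpine2, Serpinb2 and Tfpi2. In the Kai1-/- library F3 dropped from the second place to the fifth, behind Plaur, Tfpi and Plat, and the other genes kept their order among themselves. The counting intervals of neighbours in this order did not overlap, except for Serpinb2 and Tfpi2 at 0 in the Kai1-/- library.

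**Figure D2:**
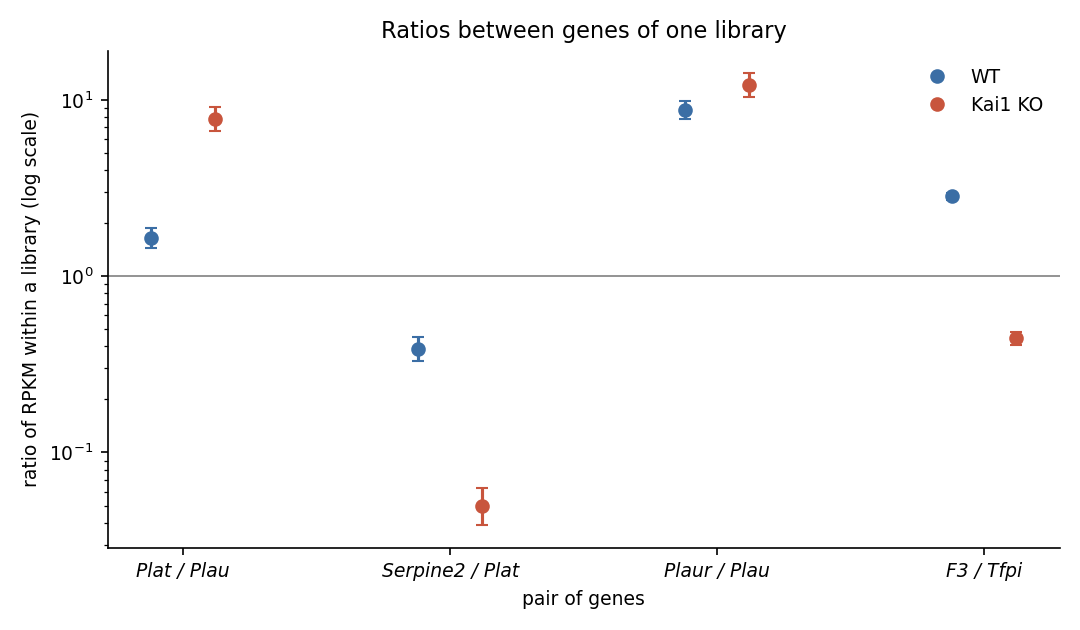
Ratio of the RPKM of 2 genes within the same library on a log axis, for the WT and the Kai1-/- library, with bars for the 95% counting interval. F3 over Tfpi is above 1 in the WT library (2.83) and below 1 in the Kai1-/- library (0.444), and Plat over Plau is higher in the Kai1-/- library (7.79 against 1.64).

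**Figure D3:**
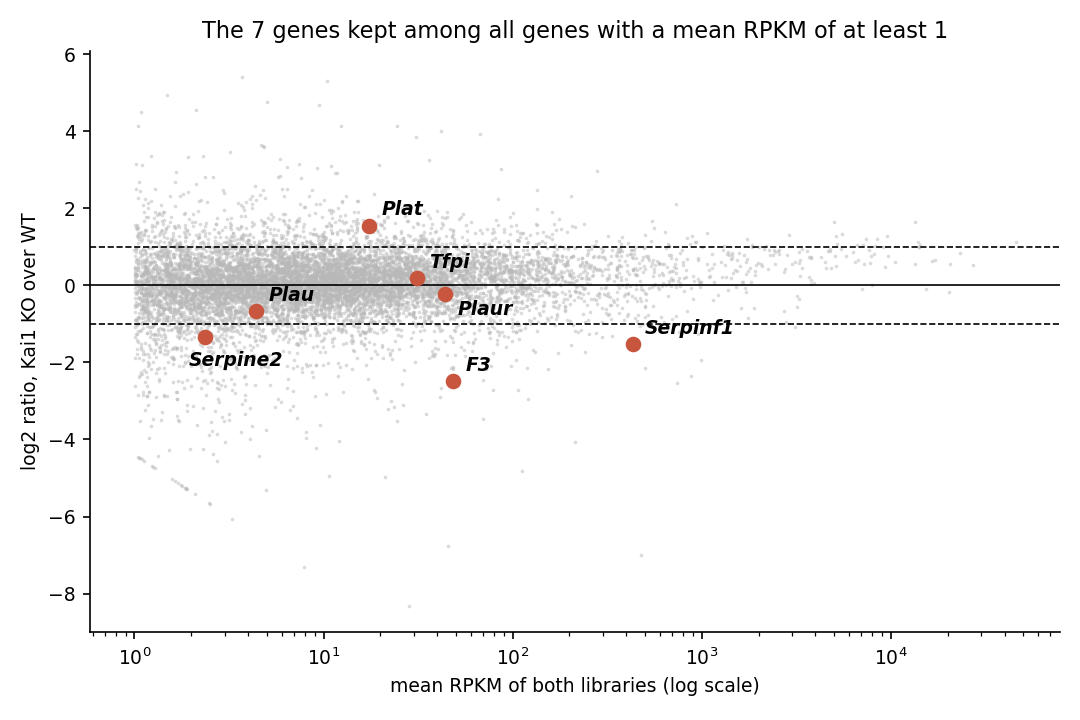
Log2 ratio of Kai1-/- to WT against the mean RPKM of both libraries, for all 10068 genes kept (grey) and the 7 described here (red), with dashed lines at 2-fold. Plat lies above the upper line, and F3, Serpinf1 and Serpine2 lie below the lower one.

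The promoters of the genes that were lower, F3, Serpine2 and Serpinf1, and of Plaur for contrast, are shown as the 250 bases before the start site, from RefSeq in GRCm38.p6, a later build than that of the gene positions above. Of the 9 genes, 7 had an entry. Plat and Plau had none, so the promoter of Plat, the gene that was more than 2-fold higher, could not be shown. The strands and positions are chr3:121723287-121723536, plus, for F3, chr1:79858666-79858915, minus, for Serpine2, chr11:75422624-75422873, minus, for Serpinf1 and chr7:24462233-24462482, plus, for Plaur. Capitals mark the letters GGGCGG, the GC box that Sp1 binds, and TGACTCA, the AP-1 site, read on either strand.

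F3: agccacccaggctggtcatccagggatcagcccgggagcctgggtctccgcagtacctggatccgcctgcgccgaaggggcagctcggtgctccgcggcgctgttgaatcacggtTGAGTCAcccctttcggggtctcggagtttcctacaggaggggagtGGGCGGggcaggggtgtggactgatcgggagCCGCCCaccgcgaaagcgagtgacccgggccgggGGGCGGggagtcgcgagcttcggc

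Serpine2: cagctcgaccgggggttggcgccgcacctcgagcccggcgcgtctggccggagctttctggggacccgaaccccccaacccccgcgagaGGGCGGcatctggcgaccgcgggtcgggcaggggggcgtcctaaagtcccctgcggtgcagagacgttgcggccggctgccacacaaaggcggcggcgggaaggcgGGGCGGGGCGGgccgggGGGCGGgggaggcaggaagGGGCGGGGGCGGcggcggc

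Serpinf1: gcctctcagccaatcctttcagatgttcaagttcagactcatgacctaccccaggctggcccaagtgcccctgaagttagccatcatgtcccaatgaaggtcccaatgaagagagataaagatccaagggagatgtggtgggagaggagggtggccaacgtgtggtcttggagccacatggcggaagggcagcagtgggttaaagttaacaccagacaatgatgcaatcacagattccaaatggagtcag

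Plaur: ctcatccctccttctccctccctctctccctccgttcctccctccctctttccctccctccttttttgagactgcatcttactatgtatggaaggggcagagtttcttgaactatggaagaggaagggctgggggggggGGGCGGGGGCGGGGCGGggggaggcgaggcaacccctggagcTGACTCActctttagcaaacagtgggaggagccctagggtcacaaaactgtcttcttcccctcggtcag

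The promoters of the genes that were lower differed in these windows. F3 held 3 GC boxes and 1 AP-1 site 135 to 129 bases before the start, and Serpine2 held 6 GC boxes, some of them overlapping, and no AP-1 site. Neither of these motifs was found in the window of Serpinf1. Plaur, which was within 2-fold, held 3 GC boxes, 2 of them overlapping, and 1 AP-1 site 69 to 63 bases before the start. Of all 32851 windows of this length, 32.7% held a GC box and 4.46% an AP-1 site. The sequence TATAA, also searched on both strands and found in 22.8% of windows, was in none of the 4 shown. Among the other genes with an entry it was found before both start sites of Serpinb2, at 29 to 25 bases from the first, and 34 to 30 bases before the second start site of Tfpi. The windows also differed in CpG dinucleotides, with 34 in Serpine2, 24 in F3, 6 in Plaur and 2 in Serpinf1, against a median of 6 over all windows. These matches describe the letters only, and binding was not measured here.

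Other genes of fibrinolysis were looked up to place the 9 genes in their pathway. Counts in this and the lists that follow can be set beside all 10068 genes, with 7.98% more than 2-fold higher and 7.81% lower. Of 20 genes on this list, 12 were kept, 1 more than 2-fold higher and 2 more than 2-fold lower, with a median log2 ratio of -0.31. The highest were Anxa2 and S100a10, whose products together hold plasminogen at the cell surface, at 3009 and 1584 RPKM in WT PCs, with log2 ratios of 0.25 and 0.10. The gene that was more than 2-fold higher was Eno1, an enolase that also binds plasminogen, from 556 to 1173. Its log2 ratio of 1.08 fell within 2-fold under the 3 other scalings, and reads of its near-identical copies make it uncertain. Serping1, which encodes the inhibitor of C1 and of plasma kallikrein, went from 44.4 to 7.47, a log2 ratio of -2.55. Vldlr, a receptor that takes up complexes of uPA with its inhibitors, went from 4.04 to 1.10, a log2 ratio of -1.79.

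Of 27 other coagulation genes, 9 were kept, 2 of them beyond 2-fold on the lower side and 0 on the higher side, with a median of -0.75. Of the whole list, 11 genes were listed at 0 in both libraries, among them those of fibrinogen (Fga, Fgb, Fgg) and prothrombin (F2). Another 5 were listed at 0 in the Kai1-/- library only, as were 1479 of all 20211 symbols, with 267 at 0 in the WT library only. Among the 5 were F5, F7 and F10, at 0.0843, 0.143 and 0.179 RPKM in WT PCs. Gas6, a vitamin K-dependent ligand of the TAM receptors, reached 15.2 RPKM in WT PCs and was 15.2-fold lower in Kai1-/- PCs. With 0.1 RPKM added to both values, its log2 ratio was -3.80. Ggcx, the carboxylase that activates vitamin K-dependent proteins, went from 11.5 to 4.38, a log2 ratio of -1.37. Vkorc1, which recycles vitamin K for this reaction, was within 2-fold, at 124 RPKM in WT PCs against 139 RPKM in Kai1-/- PCs. Anxa5, whose product covers exposed phosphatidylserine, was also within 2-fold, at 385 and 269, as was Mcfd2, which helps export factors V and VIII from the cell, at 63.2 and 35.9. Of 4 receptors of thrombin and related proteases 2 were kept, both within 2-fold, with a median of -0.47. The main thrombin receptor gene F2r was at 85.9 and 80.3 RPKM, and F2rl1 was low, with 1.70 and 0.908.

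Among the other serpins, 50 symbols in all, 10 were kept, of which 4 were beyond 2-fold on the lower side and 0 on the higher side. The median was -0.67. Serpinb6a, an intracellular inhibitor, reached 647 RPKM in WT PCs against 650 RPKM in Kai1-/- PCs, and Serpinh1, the collagen chaperone HSP47, had 462 and 435. Serpinb6c went from 33.9 to 4.41, a log2 ratio of -2.91, Serpina3n from 15.9 to 2.10, a ratio of -2.86, Serpinb9b from 115 to 50.5 and Serpina3f from 3.41 to 1.45. The Serpina3, Serpinb6 and Serpinb9 genes are groups of related copies whose sequences were not compared here, so that the share of reads given to each is uncertain. Over all 14 kept genes whose symbol starts with Serpin, Serpine2 and Serpinf1 included, 7 were more than 2-fold lower, 7 within 2-fold and 0 more than 2-fold higher.

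Of 5 genes of PEDF receptors and partners, 4 were kept, 1 of them more than 2-fold lower, with a median of 0.16, smaller than the log2 ratio of 0.50 of Gapdh itself. Plxdc2, a PEDF receptor of the cell surface, went from 9.36 to 0.598 RPKM, a log2 ratio of -3.76. Pnpla2, a lipase that also binds PEDF, was at 12.1 and 11.1. Rpsa, the laminin receptor of the ribosome, went from 1231 to 2450, a log2 ratio of 0.99, and has many processed copies in the genome that make its value uncertain.

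Of 17 genes of uPAR partners and of proteases and inhibitors next to plasmin in matrix breakdown, 12 were kept, 2 of them more than 2-fold lower and 0 higher, with a median of -0.62. Itgav, the alpha chain of the vitronectin receptor that works beside uPAR, went from 24.4 to 8.40, a log2 ratio of -1.53. Among the metalloproteinase inhibitors Timp2 went from 1060 to 458, a log2 ratio of -1.21, while Timp1, at 3518 and 2882, and Timp3, at 498 and 393, were within 2-fold. Of 10 other genes with Kunitz domains, the kind of domain found in Tfpi, 4 were kept, with a median of -1.04. Of these, Col6a3 (-1.58) and Col7a1 (-1.15) were more than 2-fold lower, and App (-0.93) and Aplp2 (-0.77) were not. Over all 133 genes of these 7 lists, 53 were kept, 1 was more than 2-fold higher and 13 more than 2-fold lower. Among all 10068 genes the shares were 7.98% higher and 7.81% lower.

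**Figure D4:**
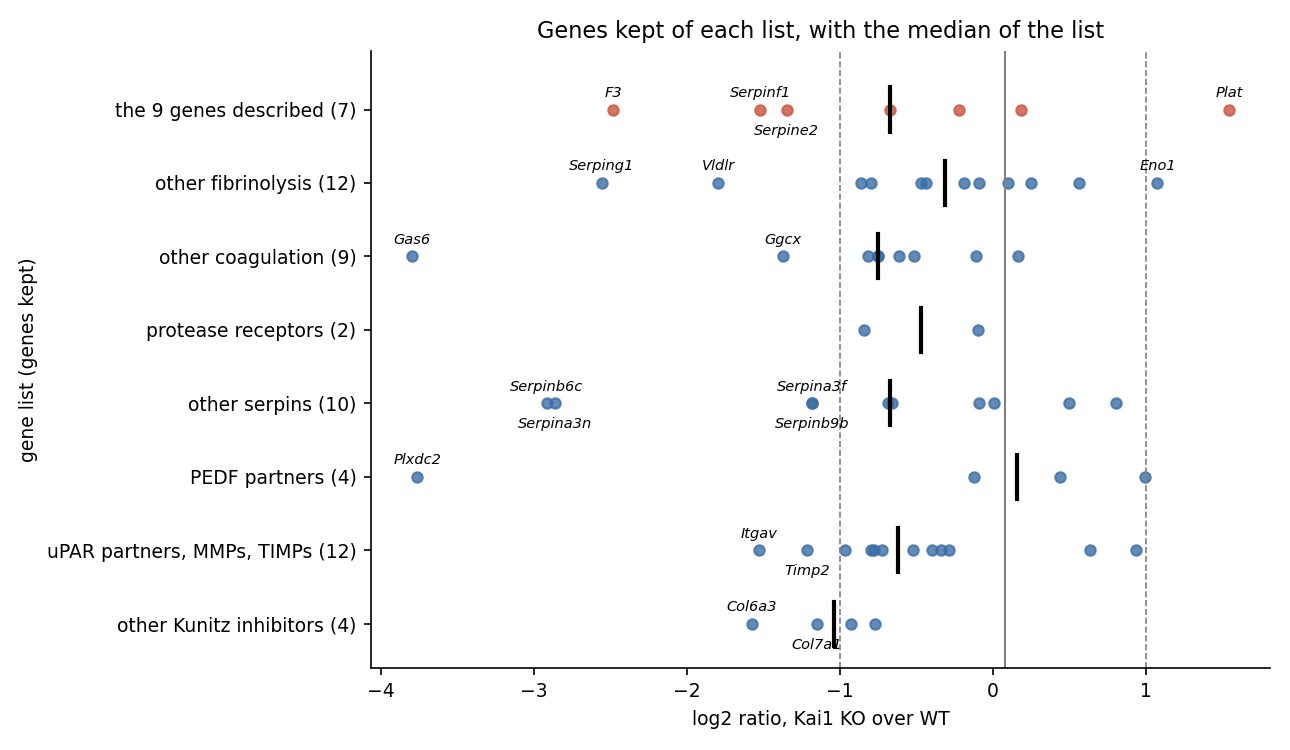
Log2 ratio of Kai1-/- to WT of each gene kept, by list, with a black bar at the median of the list, a grey line at the median of all 10068 genes (0.08) and dashed lines at 2-fold. Genes beyond 2-fold are named; on the side of higher levels these are Plat and Eno1 only.

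The scaling of the libraries bears on several of these counts. Scaling to Gapdh, which was itself at 4238 RPKM in WT PCs and at 5997 in Kai1-/- PCs, moved the median of all genes to -0.41, and then 2.76% of genes were more than 2-fold higher and 18.4% more than 2-fold lower. Under this scaling Plat (1.05), F3 (-2.98), Serpinf1 (-2.02) and Serpine2 (-1.81) remained beyond 2-fold, and Plau joined them.

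**Figure D5:**
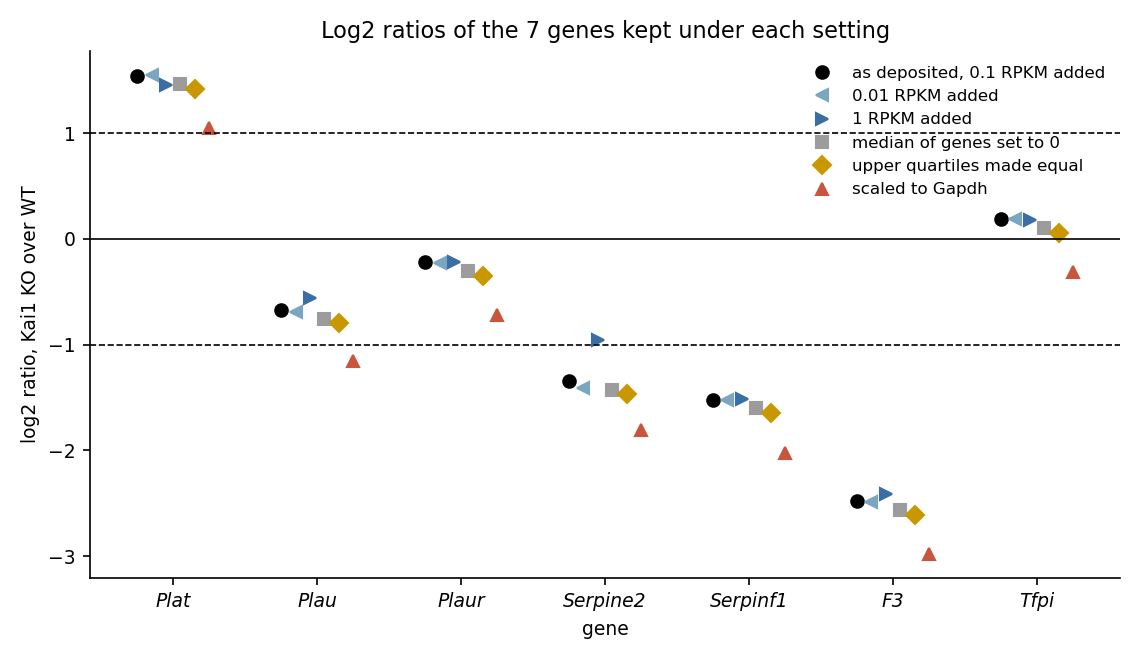
Log2 ratio of the 7 genes kept under 6 settings: RPKM as deposited with 0.1, 0.01 or 1 RPKM added, and 3 other scalings of the libraries with 0.1 RPKM added. Serpine2 comes inside the 2-fold line with 1 RPKM added (-0.95), Plau goes beyond it when scaled to Gapdh (-1.16), and Tfpi then changes sign (-0.31).

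The libraries also differed in the markers of the cells they hold. For the counts below, 7.81% of all 10068 genes were more than 2-fold lower. The 10 mural markers, among them Acta2 and Pdgfrb, were all above 0 in both libraries, and they summed to 4646 RPKM in WT PCs and 2977 in Kai1-/- PCs, of which Acta2 made up 3823 and 2580. Of the 7 mural markers kept, all 7 had a ratio below 0 and 4 were more than 2-fold lower, with a median of -1.04. Some were low or far apart, such as Rgs5 at 0.0630 and 0.233 and Mcam at 4.90 and 0.264. The 8 fibroblast markers summed to 3120 and 1490, and of the 7 kept 5 were more than 2-fold lower, with a median of -1.15. Of 13 macrophage marker symbols, 12 had values, and the other, Adgre1, is a newer name of Emr1. Of the 12, 4 were kept, all 4 more than 2-fold lower. They were Csf1r at 11.7 and 2.66, Fcer1g at 11.3 and 2.47, Tyrobp at 10.4 and 2.37 and Lyz2 at 3.44 and 1.09. The macrophage list summed to 38.9 and 9.18, with the defining markers Emr1 and C1qa at 0 in both and Ptprc at 0.0407 and 0.00697. The 12 endothelial markers summed to 3.74 and 7.47, of which Egfl7 alone made up 2.28 and 7.39. Of these markers, 7 were listed at 0 in the Kai1-/- library only, as were 1479 of all 20211 symbols. Of 5 mesothelial markers, Krt19 went from 29.3 to 91.3 and Upk3b from 0.975 to 2.81, while Msln was at 0.670 and 0.508, Lrrn4 at 0.0206 and 0 and Wt1 at 0 and 0.0259. The mesothelial list summed to 31.0 and 94.6, most of it Krt19. The 6 epithelial markers summed to 0.712 and 1.03. The 4 Y-linked genes looked up were above 0 in the WT library, at 0.479 to 6.56 RPKM, and at 0 in the Kai1-/- library. Fewer cells of a type and less RNA per cell cannot be told apart in bulk RNA, and the part of these differences in the levels of F3, Plat and the serpins was not tested. The genotype cannot be told apart from the sex of the cells, the culture or the library.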

How the data were processed

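Total RNA of PCs was sequenced as 1 WT and 1 Kai1-/- library. The authors aligned reads to mm9 (NCBI37) with TopHat2 (2.0.9) and Bowtie and deposited 1 RPKM value per RefSeq gene and library. Cufflinks is named in the submitters' processing notes, and strand and read totals are not given in the sources used here. From the deposited RPKM, 38 of 20462 rows were dropped for want of a symbol, and values of a repeated symbol were averaged. Kai1-/- was divided by WT after 0.1 was added to both, the ratio was put on the log2 scale, and a gene was kept if its values averaged 1 RPKM or more. For genes with a single transcript of over 800 bases, RPKM times the transcript length less 200 bases was fitted to multiples of 1 read. Of the low values, 80.5% (WT) and 79.8% (Kai1-/-) lay within 0.15 of a whole read. Reads used the longest transcript in GENCODE M1. Their 95% intervals are exact (Poisson for levels, Clopper-Pearson for ratios), and cover counting error only. The read step and the 2-fold call were tested on simulated data.

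The 9 genes and the lists were chosen with earlier results of these data known. Of each list, the 3 highest kept genes and up to 6 beyond 2-fold are named. The pairs and sums of genes, the neighbours within 2-fold, the markers named and the genes named as listed at 0 were chosen after their values were seen. So were Serpinb6b and Serpinb9. The limits for Serpinb2 under the median transcript length and from the lower end of its WT interval were also chosen after seeing the data. Alternatives were other pseudocounts, scalings, filters, summed symbols and transcript lengths. The annotated pseudogene Serpinb10-ps overlaps Serpinb2 and has no value under that name, while Serpinb10 was at 0 in both libraries. No other annotated gene overlapped the 9 genes. Versions were matplotlib 3.10.9, scipy 1.17.1, pandas 2.3.3, numpy 2.4.6 and Python 3.11.15. No amino acid sequences were analysed here.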

Additional observations from a re-analysis of the deposited data

How the results depend on the processing

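No paired analysis was possible because there is a single library of either genotype, and no replicate could be left out. Of 35 recomputed log2 ratios of the 7 genes, 22 stayed inside their 95% counting interval and 13 left it, 12 under another scaling and that of Serpine2 (-0.95) with 1 RPKM added. Scaled to Gapdh, the ratios were 1.05 for Plat, -1.16 for Plau, -0.72 for Plaur, -1.81 for Serpine2, which stayed inside, -2.02 for Serpinf1, -2.98 for F3 and -0.31 for Tfpi. With the upper quartiles made equal, those that moved were Plat (1.42), Plaur (-0.35), Serpinf1 (-1.65) and Tfpi (0.056). With the median of all genes set to 0 they were Serpinf1 (-1.60) and Tfpi (0.10). Each scaling shifts every gene of a library alike. Counts of the 9 genes beyond 2-fold stayed within 1.5 times of 1 higher and 3 lower, with 4 lower when scaled to Gapdh or without a filter and 2 with 1 RPKM added or a mean of at least 5. Summing repeated symbols could change nothing, since each of the 9 genes has a single row.

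Over all genes of the 7 lists, with 1 higher, 13 lower and a median of -0.66, the number higher was 0 under each of the 3 other scalings and 2 without a filter on mean RPKM. The number lower was 29 when scaled to Gapdh and 24 without the filter. The median was -1.16 when scaled to Gapdh, -0.79 with equal upper quartiles, -0.52 with 1 RPKM added, -0.47 at a mean RPKM of at least 5 and -0.088 without the filter, which lets in the many genes at 0. The median transcript length in place of the longest lowered the estimated reads of Serpinf1 to 10525 in WT and 3315 in Kai1-/- PCs, those of Tfpi to 1566 and 1610, those of F3 in WT PCs to 3779 and those of Serpinb2 in WT PCs from 50 to 32. Depth limits Serpinb2, Tfpi2 and Serpine2, with 73 reads or fewer in the Kai1-/- library.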

Other observations

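The genes next to the 9 were looked up in the same tables, 3 on each side. Of 54 neighbours, 29 were kept, 2 more than 2-fold higher and 4 more than 2-fold lower in Kai1-/- PCs, with a median log2 ratio of -0.20. Among all 10068 genes the shares were 7.98% higher and 7.81% lower. Serpinf1 had 2 of the 4 lower neighbours beside it. Smyd4, a methyltransferase gene 4064 bases away, went from 2.59 to 0.749 RPKM, a log2 ratio of -1.66. Wdr81, 18243 bases away on the other side, went from 11.2 to 4.50, a ratio of -1.29. Serpinf2, the alpha-2-antiplasmin gene that lies between Serpinf1 and Wdr81, was low, at 0.0848 and 0.0376. On one side of Plaur, Kcnn4, a calcium-activated potassium channel 77291 bases away, went from 4.63 to 1.97. On the other side Cadm4, an adhesion molecule 6150 bases away, went from 5.82 to 2.83.

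Beside Plat no kept neighbour was beyond 2-fold. Ap3m2, 4507 bases from it, was at 3.90 RPKM in WT PCs and at 4.05 in Kai1-/- PCs, Ikbkb had 9.07 and 11.1, and Polb had 16.4 and 25.8. The neighbours that were more than 2-fold higher lay farther off. Chchd1, 132245 bases from Plau, went from 27.3 to 69.3, and 2700094K13Rik, 192443 bases from Tfpi, from 65.8 to 199. Around F3, Abcd3 (-0.63), Arhgap29 (-0.51) and Cnn3 (0.06) were within 2-fold.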
